A study of Mus musculus with 12 samples.

Results

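The dystrophin-glycoprotein complex was followed through 8 of its genes, Dmd, Utrn, Dag1, Sgca, Sgcb, Sgcd, Sgce and Sntb2, in cells sorted from mouse hind limb muscle. Its members were all probe sets of the expression array that the platform annotation assigns to exactly 1 of these genes, which gave 8 of the 12393 genes on the array and 19 of the 20380 probe sets with 1 gene. Of these, 12 passed the filter on low signal, covering 7 of the 8 genes. Sgcd, with its single probe set, stayed below it. A probe set is a group of short probes against 1 transcript region, and Dmd had 3 probe sets (2 passed), Utrn 3 (1), Dag1 4 (4), Sgca 1 (1), Sgcb 2 (2), Sgce 1 (1) and Sntb2 4 (1).

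Satellite cells are the stem cells of skeletal muscle and lie between the muscle fibre and its basement membrane. All cells came from C57BL/6J mice aged 8 to 12 weeks, with 4 arrays in each of 3 groups. Activated satellite cells (ASC) were positive for SM/C-2.6, an antibody that binds mouse satellite cells, and were grown for 4 days with basic fibroblast growth factor at 2.5 ng/ml and fetal calf serum at 20%, after which over 99% were MyoD-positive. Quiescent satellite cells (QSC) were SM/C-2.6-positive cells taken straight after the sort, over 97% of them Pax7-positive. Non-myogenic cells (NMC) were negative for SM/C-2.6 and for CD45, were also taken straight after the sort, and held under 1% myogenic cells. Culture was used for ASC only, so activation, culture and time since the sort cannot be told apart. Nothing in the labels ties the 4 arrays of a group to different mice or dishes, and p-values therefore speak only of the spread among these samples, which may be technical.

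The complex spans the cell membrane and links the actin cytoskeleton to the basement membrane. Dystrophin, or its homologue utrophin, binds actin on the inside and the tail of β-dystroglycan at the membrane, while α-dystroglycan on the outside binds laminin through sugar chains on O-mannose. The sarcoglycans form a membrane subcomplex that steadies dystroglycan in muscle, and syntrophins tie signalling proteins to dystrophin. In muscle fibres, loss of dystrophin or of a sarcoglycan causes muscular dystrophy. In mouse satellite cells, dystrophin is known to be present and to act in cell polarity and asymmetric division.

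The 250 bases upstream of the transcription start are shown for Dmd and Dag1, whose signals differed most between ASC and QSC, and for Sgca and Sgcb, whose signals did not pass the test in that comparison. They are RefSeq sequence on GRCm38.p6, given 5′ to 3′ on the gene's strand, with every match to the E-box CANNTG or to the GC box GGGCGG on either strand in capitals. E-boxes are the sites that MyoD, Myf5 and many other basic helix-loop-helix factors can bind, and GC boxes those of Sp factors. RefSeq lists a start at the upstream end of Dmd and another 2099 kb downstream, and the short dystrophin isoform Dp71 is known to start near the 3′ end of the gene.
Dmd, upstream start, chrX:82948620-82948869, plus strand: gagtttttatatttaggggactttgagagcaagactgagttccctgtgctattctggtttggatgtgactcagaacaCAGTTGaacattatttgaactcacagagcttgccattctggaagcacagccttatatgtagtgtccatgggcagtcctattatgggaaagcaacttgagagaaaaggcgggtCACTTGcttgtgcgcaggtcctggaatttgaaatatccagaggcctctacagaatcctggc
Dmd, downstream start, chrX:85048045-85048294, plus strand: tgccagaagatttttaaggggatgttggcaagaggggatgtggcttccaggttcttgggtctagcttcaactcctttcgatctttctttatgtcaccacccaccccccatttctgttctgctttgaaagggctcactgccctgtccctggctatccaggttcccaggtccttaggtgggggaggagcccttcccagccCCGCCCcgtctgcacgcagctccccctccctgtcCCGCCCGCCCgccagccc
Dag1, upstream start, chr9:108263959-108264208, minus strand: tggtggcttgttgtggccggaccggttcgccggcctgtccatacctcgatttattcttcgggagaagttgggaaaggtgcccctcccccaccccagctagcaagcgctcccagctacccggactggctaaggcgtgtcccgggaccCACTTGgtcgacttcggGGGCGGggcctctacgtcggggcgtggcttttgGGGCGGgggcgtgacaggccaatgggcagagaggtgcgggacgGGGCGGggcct
Sgca, chr11:94976328-94976577, minus strand: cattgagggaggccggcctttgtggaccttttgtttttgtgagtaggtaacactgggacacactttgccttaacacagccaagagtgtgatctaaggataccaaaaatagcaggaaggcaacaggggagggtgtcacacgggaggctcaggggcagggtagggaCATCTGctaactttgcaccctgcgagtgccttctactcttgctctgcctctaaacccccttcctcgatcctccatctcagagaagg
Sgcb, chr5:73647738-73647987, minus strand: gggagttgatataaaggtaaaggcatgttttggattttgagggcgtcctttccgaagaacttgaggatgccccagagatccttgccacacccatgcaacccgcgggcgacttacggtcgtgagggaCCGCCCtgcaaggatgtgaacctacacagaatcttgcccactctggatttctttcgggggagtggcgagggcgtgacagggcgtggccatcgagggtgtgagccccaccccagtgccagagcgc

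The upstream Dmd window held 2 E-boxes and 0 GC boxes at 45.2% GC, while the downstream window held 0 E-boxes and 3 GC boxes at 60.0% GC, so these sequences of a single gene share neither motif. The last 2 GC boxes of the downstream window share bases with each other. RefSeq also lists 2 starts for Dag1: the upstream window, which is printed, held 1 E-box and 3 GC boxes at 67.6% GC, and the overlapping window chr9:108263816-108264065 held 1 E-box and 3 GC boxes at 74.8% GC. The window of Sgca held 1 E-box and 0 GC boxes at 52.8%, and that of Sgcb 0 E-boxes and 1 GC box at 58.4%. No E-box overlapped a GC box in these windows. Among 32851 windows of the same length, 66.2% held an E-box and 32.7% a GC box, with a median GC content of 52.4%. A match describes the letters in the window and is not a bound site, and which of the Dmd transcripts a probe set detects was not given in the sources used here.

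Arrays were labelled with 1 of 2 kits, and both kits were used in every group. The small-sample kit served 2 ASC, 2 QSC and 1 NMC arrays, and the two-cycle kit served 2 ASC, 2 QSC and 3 NMC arrays. The deposited signals had trimmed means of 323 to 502 on the small-sample arrays and of 160 to 236 on the two-cycle arrays, so signals are given below after scaling all arrays to the same trimmed mean, 235. Across probe sets, which are not independent replicates, arrays of a group correlated at r = 0.891 to 0.987. The ratio of 3′ to 5′ Gapdh control signal, which reads how complete the labelled RNA is, was 1.75 ± 0.411 in ASC, 4.02 ± 0.969 in QSC and 3.87 ± 0.916 in NMC (SD, n = 4 each). Pax7, the transcription factor of satellite cells, went with the labels, with 61.8 to 125 in ASC, 640.2 to 1899 in QSC and 1.2 to 6.7 in NMC. Pecam1, of endothelial cells, had 2.7 to 8.6 in ASC, 42.8 to 96.1 in QSC and 172 to 266 in NMC. Not every marker did so. The summed signal of 20 mature myofibre markers was 4456 to 13350 in QSC and 17267 to 49988 in NMC. Cd34, also a satellite cell marker, had 1362 to 1640.5 in QSC and 2897 to 3822 in NMC. The fibroblast marker Dpt had 3752.5 to 4361 in QSC. The number of arrays limits the precision of all values.

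Dmd, Dag1, Utrn, Sgce and Sntb2 fell in ASC against QSC. Of the 12 tested probe sets 9 fell, 6 of them of Dmd and Dag1, and 0 rose, against 68.3% of all 12072 tested probe sets called in either direction, 30.7% as higher and 37.6% as lower. The median log2 change was -2.29 over the members and -0.12 over all probe sets. By gene, with the probe set of highest signal, Dmd, Utrn, Dag1, Sgce and Sntb2 fell (5 of 7, against 69.5% of all genes called, 31.6% higher and 37.9% lower), while Sgca and Sgcb did not pass the test. On 8 of the 12 probe sets all ASC arrays lay below all QSC arrays and on 0 above, against 51.3% of all probe sets without overlap, 23.7% above and 27.6% below. A call is an adjusted p under 0.05 from limma on log2(signal + 14.7) with a term for the kit, adjusted by Benjamini-Hochberg over all tested probe sets, and fold changes on this scale understate the change of probe sets with low signal. Since a probe set could pass the filter on the level of a single group, these counts describe the members that passed and not the whole complex.

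In QSC against NMC the members split: 7 of 12 probe sets were higher in QSC and 2 lower, against 27.4% and 24% of all probe sets and 51.4% called in all. The higher ones were those of Dmd, Dag1 and Sgca, and the lower ones those of Sgce and Sntb2. By gene 3 of 7 were higher and 2 lower, against 25.9% and 26.3% of all genes. QSC and NMC arrays did not overlap on 9 probe sets, 8 higher and 1 lower, against 38% of all probe sets, 19.1% higher and 18.9% lower. The median log2 change was 1.24 over the members and 0.08 over all probe sets. In ASC against NMC, 2 probe sets were higher (Sgca and 1 of Sgcb) and 9 lower, against 34.1% and 35.9% of all probe sets and 70% called in all, with medians of -1.55 over the members and -0.04 over all probe sets. By gene 1 of 7 was higher and 5 lower, against 33.8% and 38.1% of all genes. ASC and NMC arrays did not overlap on 7 probe sets, 1 higher and 6 lower, against 58.4% of all probe sets, 28.9% higher and 29.5% lower. The 3 comparisons share arrays, and each group's values are therefore given side by side below.

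**Figure D1:**
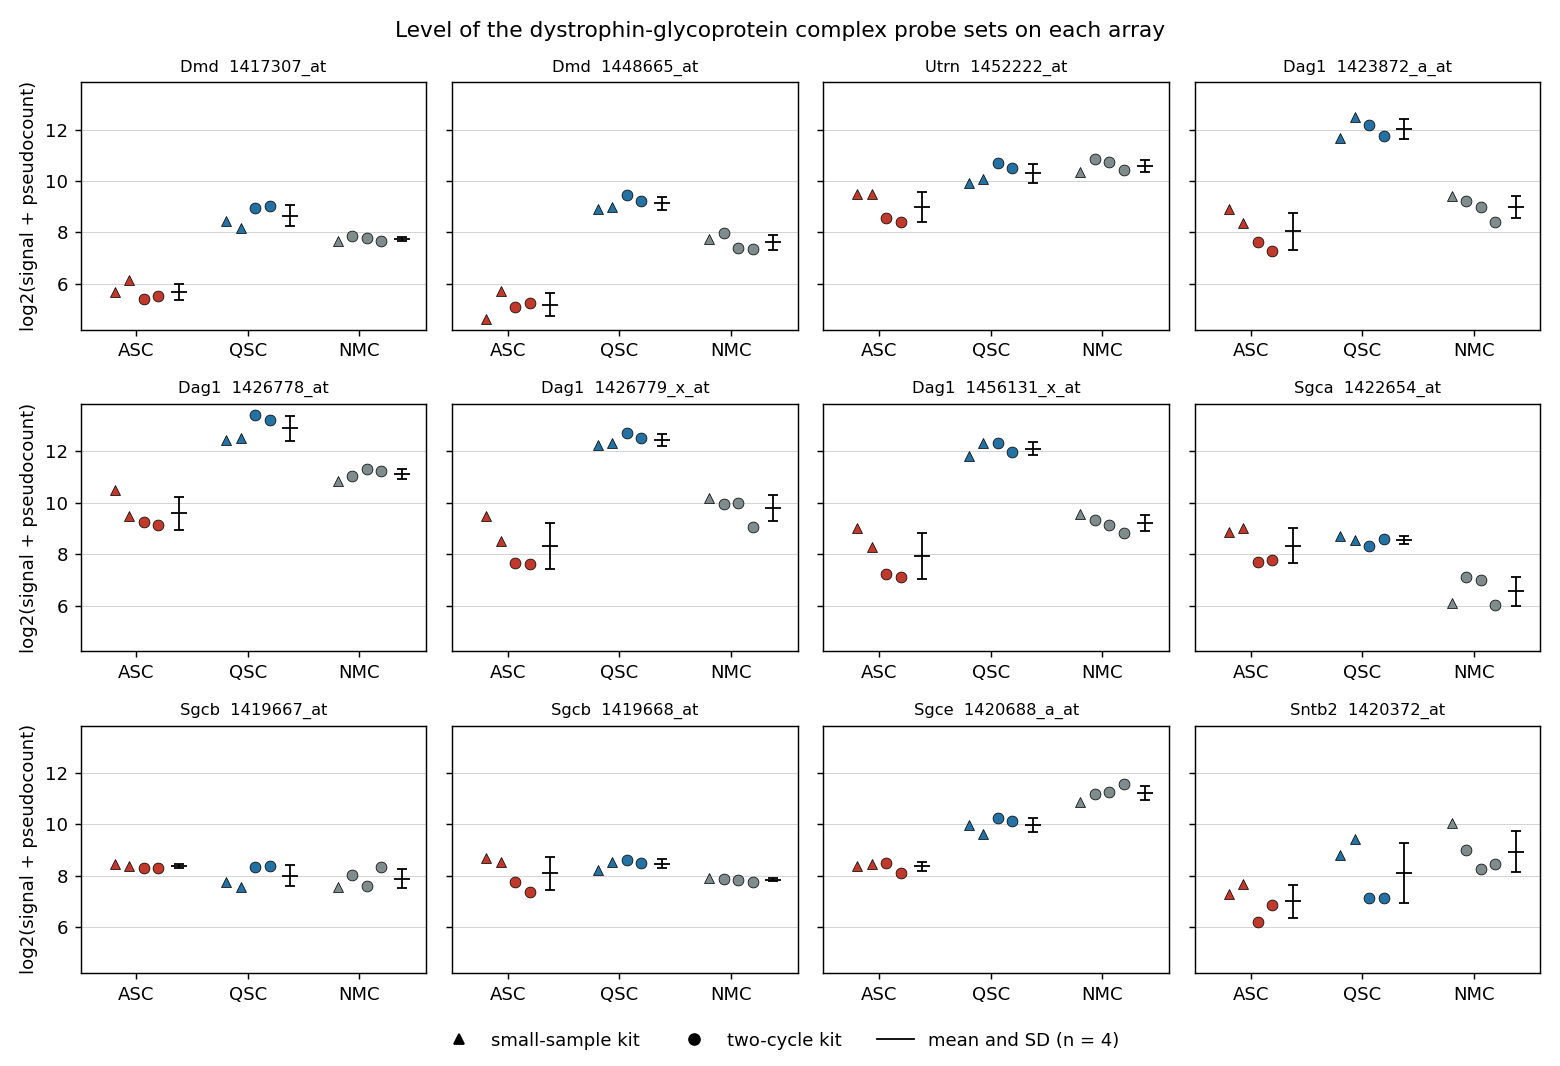
Level of the 12 member probe sets that passed the filter, as log2(signal + 14.7) on each array, for ASC, QSC and NMC, with triangles for the small-sample kit, circles for the two-cycle kit, and the mean with its SD beside each group of 4. Both Dmd and all 4 Dag1 probe sets are on average highest in QSC and lowest in ASC, Sgce and Utrn have their lowest arrays in ASC, and Sgca is lowest in NMC.

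The transcript signal of Dmd, the dystrophin gene, was highest in QSC and lowest in ASC on both tested probe sets. Dmd (probe set 1417307_at) had signals of 36.4, 56.1, 28.3 and 31.5 on the ASC arrays, 332, 273, 480.1 and 511 on the QSC arrays, and 189, 217, 206 and 191 on the NMC arrays. All ASC arrays lay under all others and all QSC arrays over all NMC arrays, and the ASC mean came to 9.54% of the QSC mean. The log2 change was -2.95 ± 0.21 (SE) in ASC over QSC, a 7.75-fold lower level (limma, adjusted p = 4.28e-08), 0.93 ± 0.21 in QSC over NMC (adjusted p = 0.00245) and -2.02 ± 0.21 in ASC over NMC (adjusted p = 1.36e-06).

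The other Dmd probe set (1448665_at) kept the same order. It had 10.5, 38.1, 20 and 23.7 in ASC, 464, 489.6, 691 and 579.6 in QSC, and 199.9, 234, 156 and 149.6 in NMC. No group overlapped another, and the ASC mean was 4.15% of the QSC mean. Its log2 change was -3.95 ± 0.22 in ASC over QSC (15.5-fold lower, limma, adjusted p = 6.17e-09), 1.55 ± 0.23 in QSC over NMC (adjusted p = 8.83e-05) and -2.41 ± 0.23 in ASC over NMC (adjusted p = 5.15e-07). With the 5 small-sample arrays alone, where NMC has 1 array, neither Dmd probe set passed in QSC over NMC (log2 0.63 and 1.20, adjusted p = 0.209 and 0.111), and on unscaled signals 1417307_at did not (0.57, adjusted p = 0.0745). The third Dmd probe set (1430320_at) stayed below the filter, with 0.3 to 5 in ASC, 4.3 to 39.7 in QSC and 4 to 8.8 in NMC.

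Utrophin, the homologue that can take the place of dystrophin at the membrane, was lower in ASC than in both freshly sorted groups. Utrn (1452222_at) had 698, 708, 366 and 323 in ASC, 947, 1065, 1652 and 1423 in QSC, and 1296, 1838, 1676 and 1358 in NMC. Every ASC array lay under every QSC and NMC array, while QSC and NMC overlapped. The log2 change was -1.31 ± 0.27 in ASC over QSC (limma, adjusted p = 0.000697) and -1.62 ± 0.27 in ASC over NMC (adjusted p = 0.00013). Between QSC and NMC the difference of -0.31 did not pass the test (adjusted p = 0.365), with a 95% interval of -0.90 to 0.28. The fall in ASC against QSC was not the same with both kits: it was -0.51 on the small-sample arrays alone, which did not pass (adjusted p = 0.0888), and -2.11 on the two-cycle arrays alone (adjusted p = 1.81e-05).

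The other Utrn probe sets were below the filter. One (1427569_a_at) had 3.7 to 23.3 in ASC, 16.6 to 35.8 in QSC and 16.7 to 32.4 in NMC. The other (1426892_at) had 1.4 to 26.1 in ASC, 1.8 to 104 in QSC and 13.6 to 235 in NMC, where a single array at 235 stood against 41.9 for the next.

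Dystroglycan, the receptor that joins the complex to laminin, set QSC apart from both other groups on all 4 probe sets. Dag1 (1426778_at) had 1435, 693, 592 and 541 in ASC, 5481, 5752, 10769.5 and 9443 in QSC, and 1835, 2103, 2488 and 2386 in NMC. The lowest QSC array stood above the highest NMC array, and the highest ASC array, labelled with the small-sample kit, stood below the lowest NMC array. The log2 change was -3.30 ± 0.30 in ASC over QSC (9.83-fold lower, limma, adjusted p = 4.51e-07), 1.80 ± 0.30 in QSC over NMC (adjusted p = 0.000264) and -1.50 ± 0.30 in ASC over NMC (adjusted p = 0.000579).

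The other 3 Dag1 probe sets (1423872_a_at, 1426779_x_at and 1456131_x_at) had 124 to 704 in ASC, 3261 to 6717 in QSC and 327 to 1142 in NMC. The suffix x marks probe sets whose probes may bind other transcripts too, and these 2 moved like the others. Their log2 changes were -3.98, -4.13 and -4.19 in ASC over QSC and 2.87, 2.52 and 2.74 in QSC over NMC, all called. The ASC means were 5.97% to 6.46% of the QSC means on these probe sets and 10.4% on 1426778_at. Against NMC, ASC was lower on all 4 probe sets (log2 -1.11 to -1.61), but on these 3 the ASC and NMC arrays overlapped. On the small-sample arrays alone, none of the 4 passed in ASC over NMC (adjusted p = 0.059 to 0.177).

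**Figure D2:**
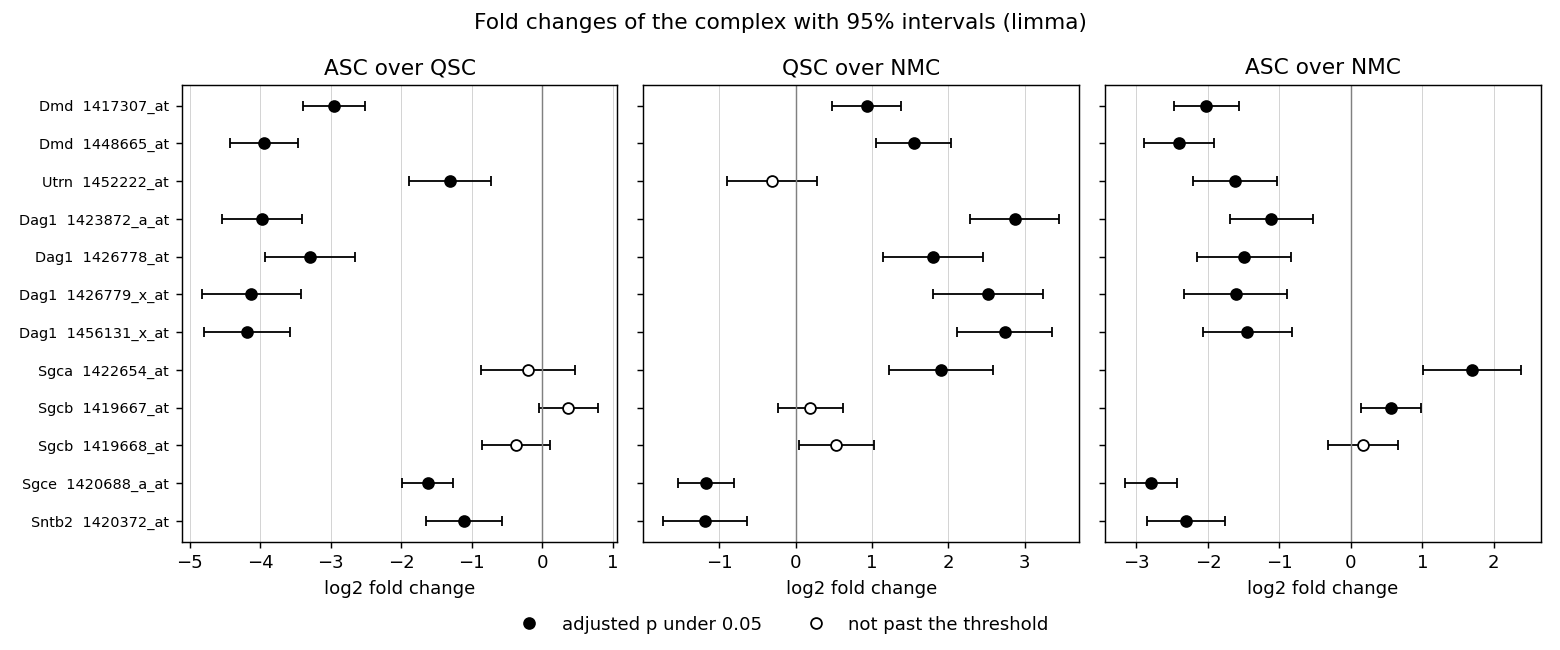
Log2 fold change of each member probe set that passed the filter, with its 95% interval from limma, for ASC over QSC, QSC over NMC and ASC over NMC. Filled points have an adjusted p under 0.05. In ASC over QSC the Dmd and Dag1 probe sets lie between -2.95 and -4.19, and Sgca and both Sgcb probe sets have intervals that hold 0.

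The sarcoglycans did not move together. α-Sarcoglycan, the member found in striated muscle, was higher in both satellite cell groups than in NMC. Sgca (1422654_at) had 445, 501, 191 and 206 in ASC, 403, 355, 306 and 371 in QSC, and 54.1, 124, 112 and 50 in NMC. All ASC and QSC arrays lay above all NMC arrays, while ASC and QSC overlapped. The log2 change was 1.90 ± 0.32 in QSC over NMC (limma, adjusted p = 0.000238) and 1.70 ± 0.32 in ASC over NMC (adjusted p = 0.000292).

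Between ASC and QSC the Sgca difference was -0.21 ± 0.31 (limma, adjusted p = 0.565), with a 95% interval of -0.87 to 0.46. Its direction turned with the scaling, to 0.20 with median centring and 0.10 on unscaled signals. The 2 small-sample ASC arrays were the high ones, and without them the change was -0.89 and passed (adjusted p = 0.0299).

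β-Sarcoglycan, which is made in muscle and in other tissues, passed the test in 1 comparison on 1 of its probe sets. Sgcb (1419667_at) had 338, 321, 303 and 301 in ASC, 199.8, 172, 305 and 317 in QSC, and 175, 246, 180 and 312 in NMC. The other Sgcb probe set (1419668_at) had 402, 356, 202 and 151 in ASC, 280.4, 355, 375 and 349 in QSC, and 225, 221, 212 and 202 in NMC. ASC overlapped both other groups on both probe sets, and only on 1419668_at did QSC lie above NMC on all arrays. In ASC over QSC the log2 changes were 0.37 ± 0.19 and -0.37 ± 0.22, opposite in sign, and neither passed (limma, adjusted p = 0.103 and 0.158).

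The 95% intervals of these Sgcb changes were -0.05 to 0.79 and -0.85 to 0.11. On 1419667_at, median centring gave 0.78 and unscaled signals 0.68, both called, and on 1419668_at median centring turned the sign to 0.04. On 1419667_at the small-sample arrays alone gave 0.78 and passed too (adjusted p = 0.0236). The change of 1419668_at passed on the two-cycle arrays alone (-0.99, adjusted p = 0.00109), without the 2 small-sample ASC arrays (-0.93, adjusted p = 0.00135) and without ASC replicate 1 (-0.54, adjusted p = 0.0495). Against NMC, ASC was higher on 1419667_at (0.56 ± 0.20, adjusted p = 0.0207), a call lost without ASC replicate 1, NMC replicate 1 or NMC replicate 3 (adjusted p = 0.0528, 0.0722 and 0.0626), without the kit term (0.0809), on the two-cycle arrays alone (0.215), without the 2 small-sample ASC arrays (0.269) or on unscaled signals (0.117). In QSC over NMC, 1419667_at stood at 0.19 ± 0.20 (adjusted p = 0.436) and turned to -0.19 on unscaled signals. There 1419668_at stood at 0.54 ± 0.23 (adjusted p = 0.0655) and passed without ASC replicate 1, ASC replicate 4 or QSC replicate 1 (adjusted p = 0.0389, 0.0265 and 0.0257). It passed as well without the 2 small-sample ASC arrays (0.00392), on the two-cycle arrays alone (0.0052), on the arrays of both groups alone (0.00497), with median centring (0.0458) and with quantile normalization (0.0239). In ASC over NMC 1419668_at stood at 0.17 ± 0.23 (adjusted p = 0.531) and passed with median centring (0.60, adjusted p = 0.0232).

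ε-Sarcoglycan, a widely expressed homologue of α-sarcoglycan, ran opposite to it against NMC, with lower levels in both satellite cell groups. Sgce (1420688_a_at) had 317, 339.6, 344 and 261 in ASC, 990.5, 763, 1190.1 and 1104 in QSC, and 1864, 2311, 2400.2 and 2975 in NMC. The 3 groups did not overlap, with NMC highest and ASC lowest. The log2 change was -1.63 ± 0.17 in ASC over QSC (limma, adjusted p = 1.67e-06), -1.17 ± 0.17 in QSC over NMC (adjusted p = 8.2e-05) and -2.80 ± 0.17 in ASC over NMC (adjusted p = 6.24e-09).

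δ-Sarcoglycan, a partner of β-sarcoglycan in the core of the subcomplex, had signals under 47.0, the limit for the mean over all arrays, on every array. Sgcd (1450805_at) had 18.4, 11.1, 10.9 and 8.9 in ASC, 18, 13.2, 17 and 2.9 in QSC, and 21.6, 22.6, 24.3 and 22.2 in NMC. All NMC arrays lay above all ASC and QSC arrays, at levels close to the pseudocount of 14.7. With no filter on low signal, the log2 change was -0.54 in QSC over NMC (limma, adjusted p = 0.0407) and -0.53 in ASC over NMC (adjusted p = 0.0308).

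β2-Syntrophin, an adaptor that holds signalling proteins at dystrophin and utrophin, was lowest in ASC and highest in NMC, with a wide spread. Sntb2 (1420372_at) had 141, 192, 58.9 and 101 in ASC, 428, 669.6, 126 and 126 in QSC, and 1050.4, 497, 292 and 333 in NMC. ASC lay under NMC on all arrays, QSC overlapped both, and in each group the small-sample arrays were the high ones. With the kit as a term the log2 change was -1.11 ± 0.25 in ASC over QSC (limma, adjusted p = 0.00131), -1.19 ± 0.25 in QSC over NMC (adjusted p = 0.0016) and -2.30 ± 0.25 in ASC over NMC (adjusted p = 2.32e-06).

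The first 2 of these Sntb2 calls depended on the kit. Without the kit term their adjusted p was 0.0863 and 0.232. The call in QSC over NMC was also lost on the small-sample arrays alone (adjusted p = 0.117) and with probe sets averaged by gene (0.0632). In ASC over QSC the change was -1.62 on the small-sample arrays alone and -0.61 on the two-cycle arrays alone (adjusted p = 0.00483 and 0.0835), and without the 2 small-sample ASC arrays it was -0.71 (adjusted p = 0.0519). The other 3 Sntb2 probe sets were below the filter, with 0.8 to 25.5 in ASC, 2.2 to 134 in QSC and 1.7 to 82.7 in NMC.

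Set in order, the levels of Dmd and Dag1 ran from QSC through NMC to ASC, each step past the test. Those of Sgce and Sntb2 ran from NMC through QSC to ASC. For Utrn the first neighbours in the order, NMC and QSC, and for Sgca the first neighbours, QSC and ASC, did not differ beyond their spread, and the order of Sgcb differed between its probe sets. In sorted populations such as these, fewer cells that make a transcript and less of it per cell cannot be told apart.

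The change from QSC was larger on the two-cycle arrays than on the small-sample arrays for most members. In ASC over QSC, 11 of the 12 probe sets had the more negative log2 change with the two-cycle kit, and Sntb2 had the less negative one. Several of the 11 belong to the same gene, Dag1, Dmd or Sgcb. The median over all probe sets also tilted this way, from -0.05 on the small-sample arrays alone to -0.18 on the two-cycle arrays alone. The difference between the kits, tested as an interaction of kit and group that was chosen after seeing the data, was called for 5 of the 12 members, against 4.66% of all probe sets. These were Utrn (-1.60, limma, adjusted p = 0.0117), Sgcb 1419668_at (-1.24, 0.0309), Dag1 1426778_at (-1.65, 0.0409), Dmd 1417307_at (-1.12, 0.0446) and Dag1 1456131_x_at (-1.56, 0.0446). The interaction was called for 0 members in QSC over NMC, where 0 of all probe sets were called, and for 0 in ASC over NMC, where 0.596% were.

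**Figure D3:**
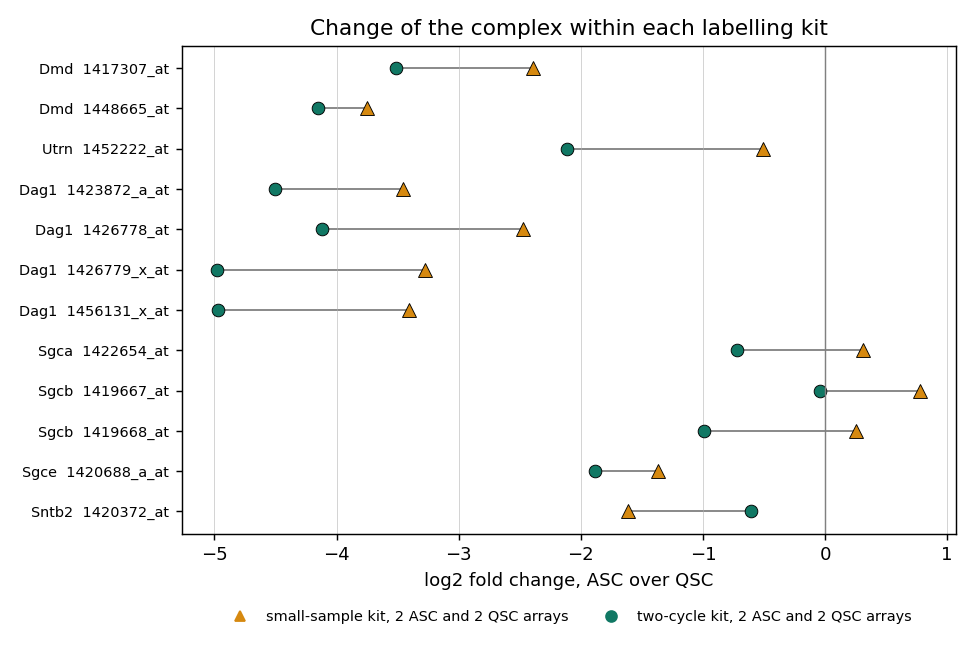
Log2 fold change of ASC over QSC for each member probe set, computed on the small-sample arrays alone (triangles, 2 ASC and 2 QSC arrays) and on the two-cycle arrays alone (circles, 2 and 2). Dmd, Dag1, Utrn, Sgce and Sntb2 are below 0 with both kits, while Sgca and both Sgcb probe sets are above 0 with the small-sample kit and below 0 with the two-cycle kit.

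The 2 small-sample ASC arrays also held more transcript of muscle differentiation. The summed signal of 14 differentiation markers was 30966 and 23344 on them and 12549 and 12493 on the two-cycle ASC arrays, against 4136 to 6390 in QSC and 1569 to 2980 in NMC. Myog, the transcription factor of differentiating myoblasts, had 4532 and 1775 on the small-sample ASC arrays and 444 and 369 on the two-cycle ASC arrays. The sum of 20 mature myofibre markers was 20957 and 23827 against 7522 and 8380 on the same ASC arrays, 4456 to 13350 in QSC and 17267 to 49988 in NMC. On these ASC arrays Sgca, Utrn, both Sgcb, Sntb2, all 4 Dag1 and Dmd 1417307_at had their higher signals too, while Sgce and Dmd 1448665_at overlapped between the kits. In ASC, kit and state of differentiation cannot be told apart. Without the 2 small-sample ASC arrays, Sgca (-0.89) and Sgcb 1419668_at (-0.93) were called lower in ASC than in QSC. Sntb2 (-0.71) no longer passed there.

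Markers of other cells of muscle moved between the groups as well. In ASC against QSC, 16 of 16 tested endothelial, 12 of 13 fibroblast and 9 of 13 smooth muscle and pericyte markers fell. So did 7 of 7 Schwann cell, 6 of 6 tenocyte and 2 of 3 leukocyte markers, against 37.9% of all genes. The summed signal of the endothelial list was 268 to 286 in ASC, 4793 to 8252 in QSC and 19983 to 24524 in NMC. That of the fibroblast list was 1538 to 1993 in ASC, 14411 to 36292 in QSC and 59698 to 108587 in NMC. In ASC, Cdh5 of the endothelial list had 1.7 to 16.4 and Pdgfra of the fibroblast list 2 to 6. Other genes of these lists stayed higher, such as Eng at 71.4 to 102 and Col3a1 at 1111 to 1287. Utrn, Sgce and Sntb2 were on average lowest in ASC, as these sums were. Sgce and Sntb2 were also lower in QSC than in NMC, while Utrn overlapped between QSC and NMC. The part of other cells in their changes was not tested. Of 19 tested mature myofibre markers 6 fell and 1 rose in ASC against QSC, against 37.9% and 31.6% of all genes, and 12 did not pass. Myh4 had 2.20 ± 0.819 in ASC and 461 ± 290 in QSC, and Ckm 75.0 ± 66.2 and 796 ± 308. The marker that rose, Eno3, had 4422 ± 1691 in ASC and 302 ± 143 in QSC. For the falls of Dmd and Dag1, the part of muscle fibres and of other cells was not tested either. The lower 3′ to 5′ Gapdh ratio of ASC also went with every fall in ASC, and its part was not tested.

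For Dmd and Dag1, whose level was higher in QSC than in NMC, most of these lists were lower in QSC in that comparison: 15 of 16 endothelial, 13 of 13 fibroblast, 10 of 13 smooth muscle and pericyte and 6 of 6 tenocyte markers were lower. In the smooth muscle and pericyte list 1 marker, Notch3, was higher in QSC (log2 1.56 ± 0.34, limma, adjusted p = 0.00176). Of 7 Schwann cell markers 1 was higher and 2 lower, against 25.9% and 26.3% of all genes, and the 3 leukocyte markers did not pass. The sums of the tenocyte list were 61.1 to 134 in ASC, 614 to 1260 in QSC and 23780 to 42519 in NMC, and those of the smooth muscle and pericyte list 2515 to 6058 in ASC, 9019.5 to 11323 in QSC and 13138 to 28065 in NMC. Schwann cell markers summed to 1491 to 2178 in ASC, 5557 to 7256 in QSC and 6204 to 8113 in NMC, and leukocyte markers to 215 to 304 in ASC, 262 to 774 in QSC and 323 to 659 in NMC. Of 9 satellite cell markers, 9 were lower in ASC than in QSC, against 37.9% of all genes. In QSC over NMC 8 were higher, against 25.9% of all genes, and 1, Cd34, was lower (log2 -1.19 ± 0.18, limma, adjusted p = 0.000101). The sums of this list were 1401 to 2101 in ASC, 17422 to 22009 in QSC and 4460 to 4755 in NMC.

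The median log2 change of all probe sets in ASC over QSC was -0.12 as scaled here, 0.30 with median centring, 0.03 with quantile normalization and 0.17 on unscaled signals. Under each of these 4 scalings both Dmd and all 4 Dag1 probe sets were lower in ASC than in QSC by more than 2 log2 units. Among all called probe sets 45% were higher in ASC than in QSC as scaled here and 64.9% with median centring, while the members were called as 0 higher and 9 lower and as 1 higher and 9 lower. In QSC over NMC the share higher was 53.4% as scaled here and 23.6% on unscaled signals, and in ASC over NMC 48.8% as scaled here and 65.7% with median centring.

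Around the complex, most tested genes of dystroglycan ligands fell in ASC against QSC, as Dmd and Dag1 did. The list held 15 genes of extracellular ligands, among them α, β and γ chains of laminin counted singly, and 9 were tested. In ASC against QSC 7 fell, 1 rose and 1 did not pass, against 69.5% of all genes called. The median log2 change was -1.78 over the list and -0.11 over all genes. Lama2, the α2 chain of the laminin of muscle basement membrane, had 177 ± 83.2 in ASC, 2098 ± 400.5 in QSC and 3676 ± 553 in NMC (SD, n = 4 each), a log2 change of -3.56 ± 0.27 in ASC over QSC (limma, adjusted p = 9.5e-08). The laminin chain genes Lamc1 (-3.11 ± 0.17) and Lamb2 (-2.33 ± 0.17) and the proteoglycan gene Bgn (-2.15 ± 0.22) fell too.

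Lamb1, the β1 laminin chain, went against the list: it had 777 ± 199 in ASC, 309 ± 111 in QSC and 2068 ± 290.5 in NMC, a log2 change of 1.31 ± 0.19 in ASC over QSC (limma, adjusted p = 3.92e-05). NMC held the most of the ligands. In QSC over NMC 8 of 9 were lower (median -0.87, against 52.2% of all genes called and a median of 0.03), led by Lama4 (-4.81 ± 0.32) and Lamb1 (-2.61 ± 0.19). In ASC over NMC 9 of 9 were lower (median -3.80, against 71.9% of all genes called and a median of -0.07), with Lama4 at 3.03 ± 1.36 in ASC and 2005 ± 452 in NMC. The fibroblast and endothelial sums given above have the same order of groups, and their part in the ligand changes was not tested.

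Of 18 enzymes that build the O-mannose sugar of α-dystroglycan, 12 were on the array and tested. In ASC against QSC 3 rose, 1 fell and 8 did not pass, against 69.5% of all genes called, 31.6% higher and 37.9% lower, with a median log2 change of 0.08. Those that rose were Dolk (0.71 ± 0.15), which makes dolichol phosphate, Gmppb (0.60 ± 0.14, lost on the small-sample arrays alone, adjusted p = 0.112), which makes GDP-mannose, and Rxylt1 (0.33 ± 0.13), a xylosyltransferase, whose call was lost in 12 of 29 alternatives, among them those without ASC replicate 2 or 3, QSC replicate 1 or 3 or NMC replicate 2 (adjusted p = 0.118, 0.0987, 0.0716, 0.0716 and 0.0503) and the one with a replicate block (0.0748). Gmppa, a regulator of GDP-mannose synthesis, fell (-0.79 ± 0.19), a call lost with median centring, on the two-cycle arrays alone and without the 2 small-sample ASC arrays (adjusted p = 0.111, 0.0825 and 0.058).

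In QSC over NMC 8 of these 12 enzymes were lower and 1 was higher, against 52.2% of all genes called, 25.9% higher and 26.3% lower, with a median of -0.44. Gmppb had 74.7 ± 17.3 in QSC and 368 ± 97.0 in NMC (log2 -1.93 ± 0.14, limma, adjusted p = 1.69e-07), and Gmppa (-0.81 ± 0.20), Dpm1 (-0.59 ± 0.19) and Dolk (-0.53 ± 0.15) were lower too. The call of Dpm1 was lost without QSC replicate 3 (adjusted p = 0.0801) and with probe sets averaged by gene (0.792), and that of Gmppa without the kit term (0.14) and on the small-sample arrays alone (0.406). That of Dolk was lost on either kit's arrays alone (adjusted p = 0.182 small-sample and 0.0594 two-cycle) and with a replicate block (0.0667). Pomgnt1, which adds the next sugar to O-mannose, was higher (0.40 ± 0.15), a call lost in 19 of 29 alternatives and without any of 10 single arrays (adjusted p = 0.0525 to 0.112). In ASC over NMC 0 enzymes were higher and 4 lower, against 71.9% of all genes called. They were Gmppa (-1.59 ± 0.20), Gmppb (-1.33 ± 0.14), B4gat1 (-0.54 ± 0.15) and Pomk (-0.77 ± 0.25), of which median centring lost B4gat1 and Pomk (adjusted p = 0.529 and 0.208). Pomk was lost too without ASC replicate 3, ASC replicate 4 or NMC replicate 1 (adjusted p = 0.059, 0.0582 and 0.0872).

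**Figure D4:**
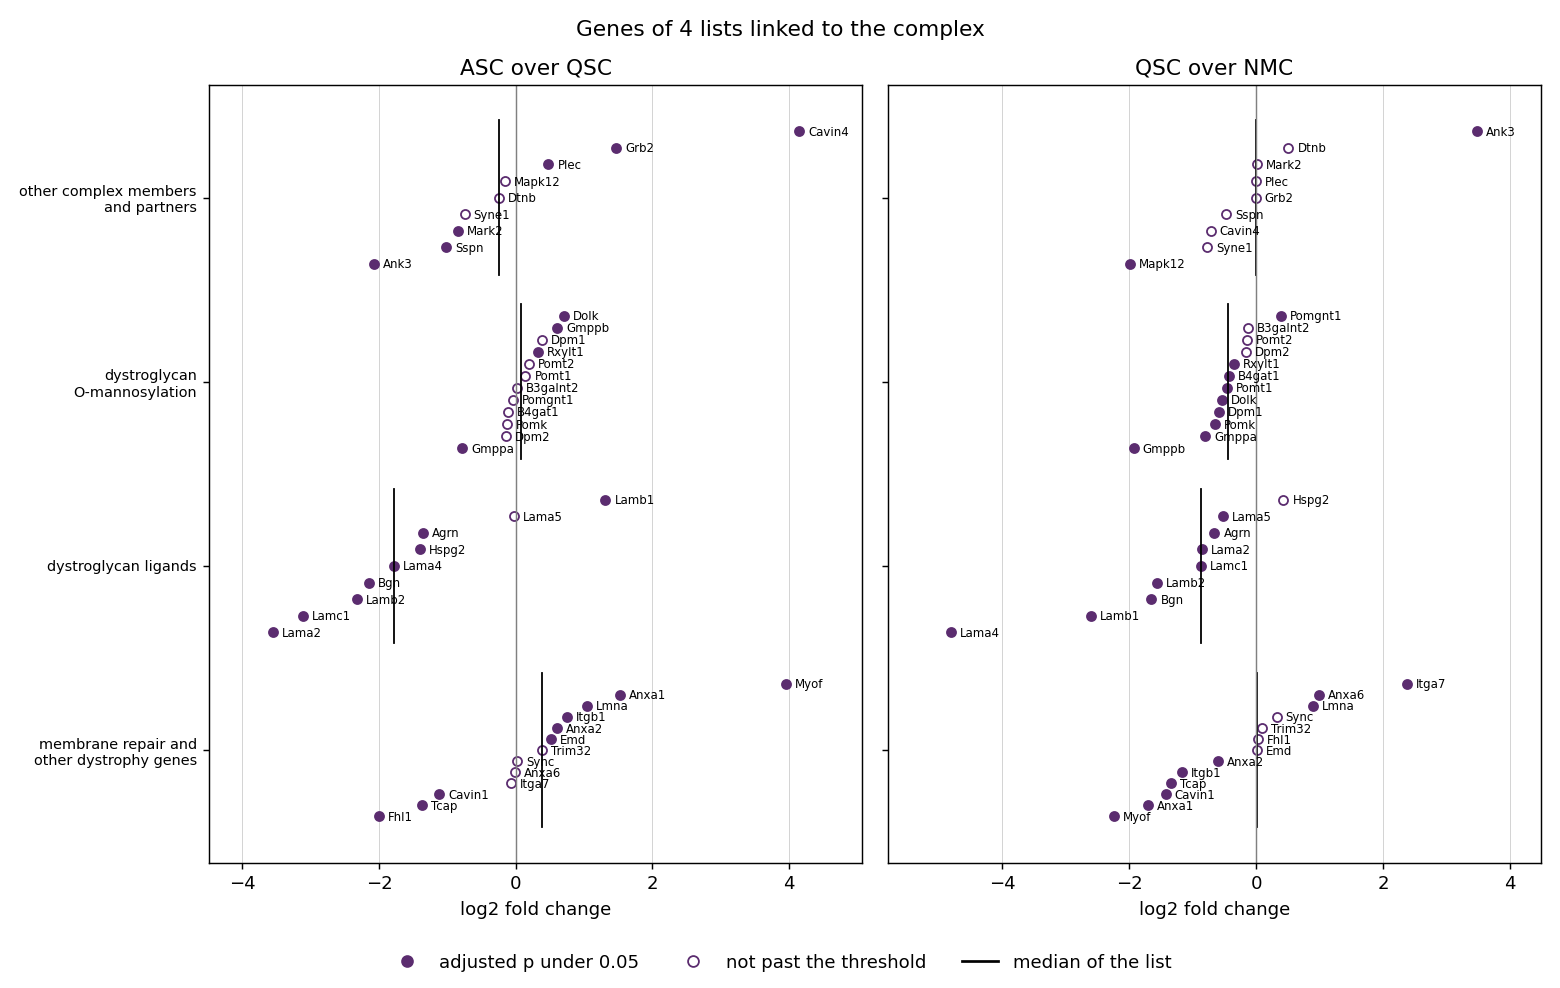
Log2 fold change of the tested genes of 4 lists linked to the complex, for ASC over QSC (left) and QSC over NMC (right), with filled points for an adjusted p under 0.05 and a vertical line at each list's median. Of the 9 genes of dystroglycan ligands 7 are called lower in ASC than in QSC and 8 lower in QSC than in NMC, and the O-mannosylation enzymes lie close to 0 on the left.

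Other parts and partners of the complex went both ways. Of 22, 17 were on the array and 9 were tested, and in ASC against QSC 3 rose, 3 fell and 3 did not pass, a share near the 69.5% of all genes called, with a median of -0.24. Sspn, the gene of the membrane protein sarcospan that sits beside the sarcoglycans, had 444 ± 106 in ASC, 940.3 ± 326 in QSC and 1384 ± 343 in NMC, and fell in ASC against QSC (log2 -1.02 ± 0.23, limma, adjusted p = 0.00123). On the small-sample arrays alone that call was lost (-0.46, adjusted p = 0.197). Ank3, the ankyrin-G gene, whose product anchors dystrophin and dystroglycan in muscle, had 195 ± 65.4 in ASC, 874 ± 333 in QSC and 69.2 ± 20.6 in NMC. Its log2 change was -2.07 ± 0.25 in ASC over QSC and 3.49 ± 0.26 in QSC over NMC, as with Dmd and Dag1 lower in ASC and higher in QSC. In ASC over NMC, unlike Dmd and Dag1, it was higher (1.42 ± 0.26, limma, adjusted p = 0.000229). That call did not hold on the small-sample arrays alone (0.75), where NMC has 1 array.

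Cavin4, of muscle caveolae, rose in ASC against QSC (4.14 ± 0.30, limma, adjusted p = 5.86e-08), with 741 ± 445 in ASC, 23.5 ± 11.0 in QSC and 40.0 ± 12.6 in NMC, and so did the signalling adaptor gene Grb2 (1.47 ± 0.13). In QSC over NMC 1 of the 9 partners was higher, Ank3, and 1 lower, the kinase gene Mapk12 (-1.98 ± 0.16), against 52.2% of all genes called, with a median of 0.00. In ASC over NMC 4 were higher and 4 lower, against 71.9% of all genes called, with a median of 0.27. They included Cavin4 (3.43 ± 0.31), Mapk12 (-2.14 ± 0.16) and Sspn (-1.49 ± 0.23). The call of Sspn did not hold on the small-sample arrays alone (-0.95), where NMC has 1 array.

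Genes of membrane repair and of other muscular dystrophies went both ways too. Of 18, 16 were on the array and 13 were tested, and in ASC against QSC 6 rose, 3 fell and 4 did not pass, a share near the 69.5% of all genes called, with a median of 0.39. Myof, the gene of myoferlin, a ferlin of myoblast fusion and membrane repair, had 1334 ± 206 in ASC, 73.8 ± 21.2 in QSC and 412 ± 54.6 in NMC (log2 3.95 ± 0.18 in ASC over QSC, limma, adjusted p = 7.93e-10), and the annexin gene Anxa1 rose as well (1.53 ± 0.19). Those that fell were Cavin1 (-1.12 ± 0.16), Fhl1 (745 ± 411 in ASC and 2800.0 ± 919 in QSC) and the sarcomere gene Tcap (-1.37 ± 0.43, a call lost on the small-sample arrays alone and with median centring, adjusted p = 0.259 and 0.0526). Itga7, the integrin chain that gives muscle its other laminin receptor, had 1227 ± 278 in ASC and 1268 ± 65.9 in QSC, a difference of -0.07 that did not pass (adjusted p = 0.717), against 229.8 ± 38.5 in NMC.

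In QSC over NMC 3 of these 13 genes were higher and 6 lower, against 52.2% of all genes called, with a median of 0.01. Itga7 was higher (2.38 ± 0.18), and so were Anxa6 (1.00 ± 0.18) and the lamin gene Lmna (0.90 ± 0.31), while Myof (-2.24 ± 0.18), Anxa1 (-1.70 ± 0.19) and Cavin1 (-1.43 ± 0.17) were among the lower ones. The call of Lmna was lost in 7 of 29 alternatives, 4 of which left out QSC replicate 1 or 2 or NMC replicate 1 or 2 (adjusted p = 0.0675, 0.0664, 0.117 and 0.0503). In ASC over NMC 6 were higher and 3 lower, against 71.9% of all genes called, with a median of 0.35. Itga7 (2.30 ± 0.18), Lmna (1.94 ± 0.31) and Myof (1.71 ± 0.18) were among the higher ones. The lower ones were Cavin1 (-2.54 ± 0.17), Tcap (-2.72 ± 0.44) and Fhl1 (-1.97 ± 0.34). Some of these calls did not hold on the small-sample arrays alone, where NMC has 1 array. They were Anxa6 (0.99) and Cavin1 (-1.02) in QSC over NMC and Tcap (-1.13) in ASC over NMC.

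The genes whose profile lay nearest to each member were found as those with the smallest root mean square difference between log2 values centred on their mean, over the 12 arrays and among probe sets that passed the filter. For Dmd these were Hbp1 (0.24), Sesn1 (0.24) and Crebrf (0.26), where Dmd itself varies about its mean by 1.26. For Dag1 they were Gpr155 (0.26), Etfbkmt (0.29) and Ptprf (0.30), against 1.41 for Dag1. For Utrn they were Mkrn1 (0.12), Lamp2 (0.22) and Cpd (0.22), against 0.79 for Utrn.

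Among the sarcoglycans, Sgca lay nearest to Pex11a (0.40), Itga7 (0.42) and Fitm1 (0.43), against its own 1.00. Sgce lay nearest to Fam114a1 (0.16), Tmeff2 (0.19) and Boc (0.21), against 1.19, and Sgcb 1419668_at to Myh9 (0.19), Zfp329 (0.19) and Strn3 (0.20), against 0.42. Sntb2 lay nearest to Fli1 (0.41), Fgf1 (0.45) and Tmem106a (0.49), against 1.11. Of these 21 genes 9 were named again with a pseudocount 4 times as large and 9 with quantile normalization, so the names depend on the scale of the values.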

How the data were processed

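Gene expression was measured in 12 samples on Affymetrix mouse 430A arrays, 1 array per sample. The authors deposited linear signal intensity values computed with MAS5, per the submitters' processing notes, whose version is not given in the sources used here. Of 22690 probe sets, 20380 were annotated to 1 gene, 691 to several and 1555 to none, and 64 were controls. Current symbols were taken through Entrez IDs from RefSeq, which matched 20351.

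Each array was scaled to a 2% trimmed mean of 235, 14.7 was added and log2 taken. Probe sets with a mean scaled signal of at least 47.0 were tested (12072). limma 3.58.1 in R 4.3.3 fitted group and labelling kit on all 12 arrays with 8 residual degrees of freedom, and p-values were adjusted by Benjamini-Hochberg over all tested probe sets, with a call at 0.05. A gene outside the complex is represented by its probe set of highest mean signal, as is a gene in counts by gene. The method was tested on simulated data with 200 changed probe sets in ASC over QSC. It called 70% of the 2-fold and 100% of the 4-fold changes, and 12 unchanged probe sets. The simulated noise was normal and independent, and the kit effect was the same in every group. Figures were drawn with matplotlib 3.10.9.

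All probe sets of the 8 members are named. Of each list of linked genes, the text names, per comparison, the called genes of lowest adjusted p, 4 at most, besides each one called opposite to the majority. For each member, by its probe set of highest mean log2 signal, it names the 3 genes nearest in profile. The members and lists were chosen with earlier results of these data known. Equal replicate numbers share the kit in all groups, except that number 2 is small-sample in ASC and QSC and two-cycle in NMC. Deviations of equal numbers from their group means correlated across probe sets at 0.172 to 0.313 in ASC and QSC, -0.387 to 0.365 in QSC and NMC and -0.178 to 0.401 in ASC and NMC. With the kit removed these were -0.506 to -0.136, -0.276 to -0.0567 and -0.366 to 0.251. The kit is a term of the main fit, and a replicate block was added to it as an alternative. The alternatives were other scalings, pseudocounts, filters, probe set summaries and variance models, the kit term, each kit alone, a replicate block and leaving out each array.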

Additional observations from a re-analysis of the deposited data

How the results depend on the processing

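Each result was recomputed under 27 to 29 alternatives, 12 of which leave out 1 array. The results of linked genes were chosen after seeing the data. Of 36 member results 20, and of 53 results of linked genes 37, kept direction and call under all alternatives that covered them. Directions turned for results that had not passed: Sgca in ASC over QSC was 0.31 on the small-sample arrays alone, 0.20 with median centring and 0.10 unscaled. Sgcb 1419667_at was -0.040 in ASC over QSC on the two-cycle arrays alone and -0.19 in QSC over NMC unscaled. Sgcb 1419668_at in ASC over QSC was 0.25 on the small-sample arrays alone, 0.042 with median centring and 0.000691 with both probe sets averaged, and in ASC over NMC -0.26 on the two-cycle arrays alone and -0.29 without the 2 small-sample ASC arrays. The cause was not tested.

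Probe sets called were 8248 in ASC over QSC, 6202 in QSC over NMC and 8450 in ASC over NMC, against 7762 to 8224, 5567 to 6147 and 7872 to 8644 when 1 array was left out. Members called were 9, 9 and 11, against 9 to 10, 9 to 10 and 10 to 11. With probe sets averaged by gene, 5396, 4121 and 5554 of 7692 genes and 5, 4 and 6 members were called, and with 1 probe set per gene 5, 5 and 6 of 7 members, since fewer features were tested. The small-sample arrays alone, with 1 NMC array, gave 2072 calls in QSC over NMC and 5281 in ASC over NMC, and 7 members in ASC over NMC.

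With a replicate block and the kit term, 7816, 4948 and 7760 probe sets were called in the same 3 comparisons, and no member call changed. Of linked genes 6 calls were lost: Rxylt1 in ASC over QSC (adjusted p = 0.0748), Dolk (0.0667), Dpm1 (0.0504), Pomgnt1 (0.173) and Lmna (0.0946) in QSC over NMC, and Pomk in ASC over NMC (0.0631).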
